A study of Homo sapiens with 16 samples.

Results

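The nuclear genome encodes most protein subunits of the 5 complexes of oxidative phosphorylation, and 84 protein-coding genes for such subunits were followed here among the 60675 identifiers of the count table. They were chosen by symbol, with earlier results of these data known: the numbered NDUFA, NDUFB, NDUFC, NDUFS and NDUFV genes, SDHA to SDHD, 9 named genes of the cytochrome bc1 complex, the COX4 to COX8 genes and the ATP5F1, ATP5M and ATP5P genes, without assembly factors and pseudogenes. Complex I was represented by 36 genes, complex II by 4, complex III by 9, complex IV by 17 (NDUFA4, now known as a subunit of this complex, was counted here) and complex V by 18. The RNA came from H9, an established human embryonic stem cell line, and in every group the cells carried EGFP under the REX1 promoter and were grown without feeder cells. Polyadenylated RNA was sequenced after transfection of 30 to 50 nM siRNA in 6 groups. Pools of enzymatically made siRNA (esiRNA) targeted SALL4 (n = 3, harvested at 48 h), DSCC1 (n = 3, 72 h), SEPHS1 (n = 3, 72 h) and, as a control without a target in these cells, Renilla luciferase (n = 2, called Luciferase here). VRTN (n = 3, 48 h) was targeted with a pooled siRNA of another supplier, and a further control siRNA (n = 2, called Control here) completed the set. When the controls were harvested is not given in the labels, so effects of time and of knockdown cannot be told apart in comparisons with them.

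Complexes I and II pass electrons to ubiquinone, complex III passes them on to cytochrome c and complex IV to oxygen, and complex V uses the resulting proton gradient to make ATP. Complexes I, III, IV and V combine nuclear-encoded subunits with a few that are encoded in mitochondrial DNA, whereas complex II is nuclear-encoded throughout. Pluripotent stem cells are known for a high rate of glycolysis beside a functioning respiratory chain.

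Levels below are CPM (counts scaled by library size and TMM factor) with the SD (n = 4 for controls, 3 for each knockdown), and changes are given on the log2 scale with their SE. Adjusted p values are from edgeR's quasi-likelihood test, by the Benjamini-Hochberg method across the 19772 genes tested, and a gene is called when this p is under 0.05. Library totals ran from 18597262 to 28662389 counts, and 3 counts, the limit that a count of 0 allows, corresponded to 0.105 to 0.161 CPM. Of 8 pluripotency markers 7 had reads, and ZFP42, the gene also called REX1, was listed at 0 in all 16 libraries. In its own knockdown the VRTN transcript fell by 2.75 (SE 0.13, adjusted p = 2.04e-16), and the SEPHS1 transcript fell by 2.75 (SE 0.14, adjusted p = 9.09e-15). SALL4 (log2 fold change -0.36, SE 0.11, adjusted p = 0.0562) and DSCC1 (log2 fold change -2.27, SE 0.71, adjusted p = 0.486) were not called in theirs. In SALL4 siRNA cells the SEPHS1 transcript also fell, by 0.99 (SE 0.13, adjusted p = 1.13e-05). Transcripts of the mitochondrial genome took 27.9 to 33.4% of counts in controls, 26.4 to 34.8% with SALL4 siRNA, 29.2 to 36.9% with VRTN siRNA, 33.6 to 39.2% with DSCC1 siRNA and 38.7 to 45.5% with SEPHS1 siRNA. Of the fibroblast marker list, COL1A1 was at 1534 to 1759.8 CPM in controls, 479 to 1250.2 with SALL4 siRNA, 494 to 808 with VRTN siRNA, 1688 to 1923 with DSCC1 siRNA and 1274 to 1510.5 with SEPHS1 siRNA. The other 4 genes of that list summed to 262 to 322 CPM in controls and to 304 to 434, 295 to 403, 269 to 281 and 268 to 326 in the same order. Summed pluripotency markers (3243 to 3308 against 3558 to 3937 CPM) and neuroectoderm markers (111 to 146 against 168 to 182) were below all controls with SALL4 siRNA. Genes of the pluripotency list moved in both directions there. PODXL, its gene with the highest level, fell by 0.48 (SE 0.11, adjusted p = 0.00930). NANOG (log2 fold change 0.55, SE 0.16, adjusted p = 0.0542) and LIN28A (0.10, SE 0.09) were higher without a call, and DPPA4 (-0.12, SE 0.10) was lower without one. With VRTN siRNA summed mesoderm markers were below (42.5 to 55.0 against 60.2 to 73.7) and summed endoderm markers above all controls (11.4 to 15.6 against 4.36 to 9.29). With DSCC1 siRNA summed mesoderm markers were below (49.0 to 51.9) and summed neuroectoderm markers above them (188 to 194). With SEPHS1 siRNA the sums of all 6 marker lists overlapped the controls. Among KDR, MIXL1, EOMES and TBXT of the mesoderm list, KDR had by far the highest level, so it weighs most in that sum. With VRTN siRNA KDR was lower and MIXL1, EOMES and TBXT were higher, all without a call. With DSCC1 siRNA KDR and EOMES were lower and TBXT was higher, also without a call. The part of the mitochondrial share and of these markers in the results below was not tested. In bulk RNA, fewer cells of a type and less RNA per cell cannot be told apart.

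In the 4 control libraries the 84 genes together reached 3646 ± 106 CPM (SD, n = 4), of which complex V made up 1448 ± 23.2 CPM, complex I 985 ± 53.9, complex IV 637 ± 30.0, complex III 427 ± 18.1 and complex II 149 ± 9.52. Per kilobase of transcript, the highest member in controls was COX5A, a complex IV subunit, at 433 ± 19.2 CPM per kb. NDUFB4, an accessory subunit of the membrane arm, led complex I at 214 ± 21.8 CPM per kb. ATP5MC2, a gene for the subunit of the rotating c ring, led complex V at 191 ± 13.4 CPM per kb, and CYC1, cytochrome c1, led complex III at 119 ± 4.86. In complex II SDHB, the iron-sulfur subunit, was highest at 26.1 ± 1.57 and SDHD, a membrane anchor, lowest at 2.99 ± 1.01 CPM per kb. This rank depends on the transcript chosen: SDHC had more counts, at 101 CPM against 30.1 for SDHB, for an annotated transcript of 13566 bases. The lowest genes with reads in controls were NDUFV2 in complex I (mean 0.0732 CPM per kb), UQCRB in complex III (0.625, for an annotated transcript of 5575 bases), COX7A2 in complex IV (2.88) and ATP5MGL in complex V (0.0106). NDUFV2, a core iron-sulfur subunit, had reads in 3 of the 16 libraries, 9 at most, while 19.3% of its 80-base windows also occur in genes elsewhere and 28.4% of its exon bases overlap another gene on the same strand. Levels of such genes depend on how shared reads were counted, which is not given in the sources used here.

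**Figure D1:**
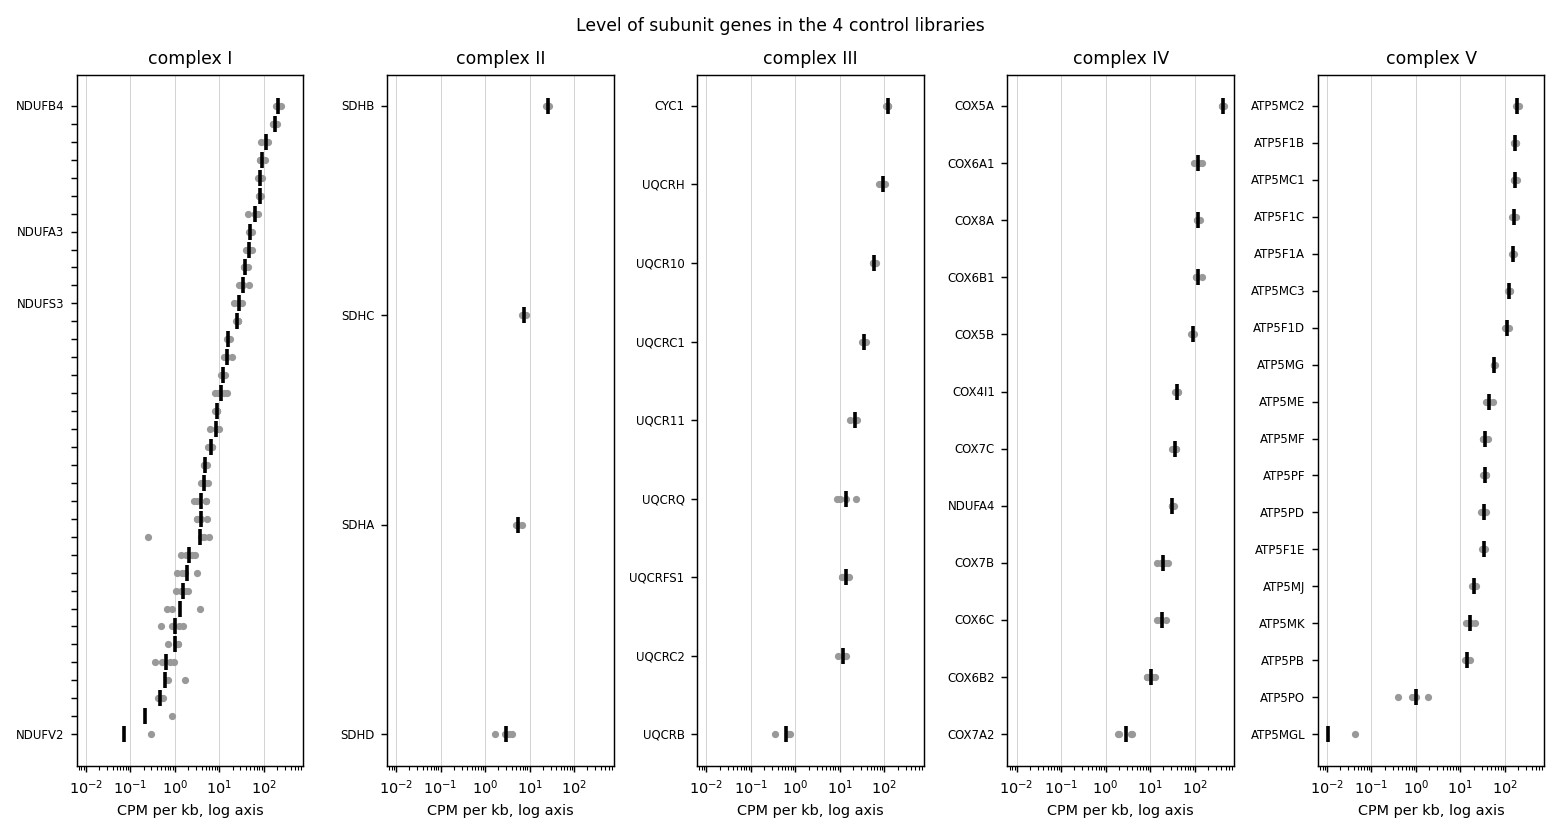
Level of each subunit gene in the control libraries, in CPM per kilobase of transcript on a log axis, by complex; grey points are single libraries (2 Luciferase, 2 Control; libraries at 0 are not drawn) and black bars are means. COX5A stands highest at 433 CPM per kb, and within complex I the means spread from 0.0732 to 214; genes at 0 in all 4 libraries are left out, and of complex I only NDUFB4, NDUFA3, NDUFS3 and NDUFV2 are labelled.

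Of the alternative isoforms of complex IV known from tissues such as muscle, lung or testis, COX4I2, COX6A2, COX7B2 and COX8C had no count in any library, against 28.8 ± 1.93 CPM for COX4I1, 70.0 ± 11.5 for COX6A1 (uncertain, since 26.6% of its 80-base windows also occur in COX6A1P2), 8.70 ± 2.09 for COX7B and 60.6 ± 5.39 for COX8A in controls. COX7A1, the muscle isoform, had reads in 3 knockdown libraries and in no control, with 24 counts at most, and COX7A2 was at 2.23 ± 0.821 CPM. COX6B2, the testis isoform, was measured beside COX6B1, at 4.97 ± 1.04 against 51.9 ± 9.02 CPM in controls. It had at least 85 counts in each library, and 30.9% of its exon bases overlap AC020922.1 on the same strand. All 3 genes for the same mature c-ring subunit of ATP synthase were expressed, ATP5MC1 at 102 ± 8.06, ATP5MC2 at 142 ± 9.98 and ATP5MC3 at 99.6 ± 3.63 CPM.

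Read as sums over all 84 genes, the subunits stood at 113, 104, 111 and 114% of the control mean with SALL4, VRTN, DSCC1 and SEPHS1 siRNA. The sums were 3861, 4141 and 4326 CPM in the SALL4 libraries, 3820.3, 3666 and 3889 in the VRTN libraries, 4051, 4126 and 3912 in the DSCC1 libraries and 3952, 4264 and 4302 in the SEPHS1 libraries. Controls were at 3665 and 3557 (Luciferase) and at 3788 and 3576 CPM (Control), so every knockdown library but VRTN replicate 2 was above all 4 of them. By complex, the sums of complex I (at 115, 109.7, 111 and 117% of controls) and of complex IV (119, 109.8, 117 and 115%) were above all controls in all 12 knockdown libraries. Complex II differed from this (at 95.8, 89.0, 106 and 104%): none of the 12 libraries exceeded the highest control. Its sums in the VRTN libraries, 130.2, 129.0 and 138.8 CPM, all lay below the controls, at 161.3 and 151.3 (Luciferase) and 144.1 and 139.5 (Control). Of the complex II mean of 149 CPM in controls, SDHC alone made up 101 CPM, so this sum is largely that of 1 gene. Complex III was at 121, 101, 109 and 116% and complex V at 108, 99.99, 108 and 113% of the control mean. In complex III 10 of the 12 libraries were above all controls, VRTN replicate 2 was below them and DSCC1 replicate 3 was inside their range. In complex V 9 were above, VRTN replicate 2 was again below, and SALL4 replicate 1 and VRTN replicate 3 were inside. As a share of counts from the nuclear genome alone, the 84 genes took 0.557 to 0.579% in controls, 0.576 to 0.668% with SALL4 siRNA, 0.557 to 0.612% with VRTN siRNA, 0.561 to 0.627% with DSCC1 siRNA and 0.607 to 0.643% with SEPHS1 siRNA.

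**Figure D2:**
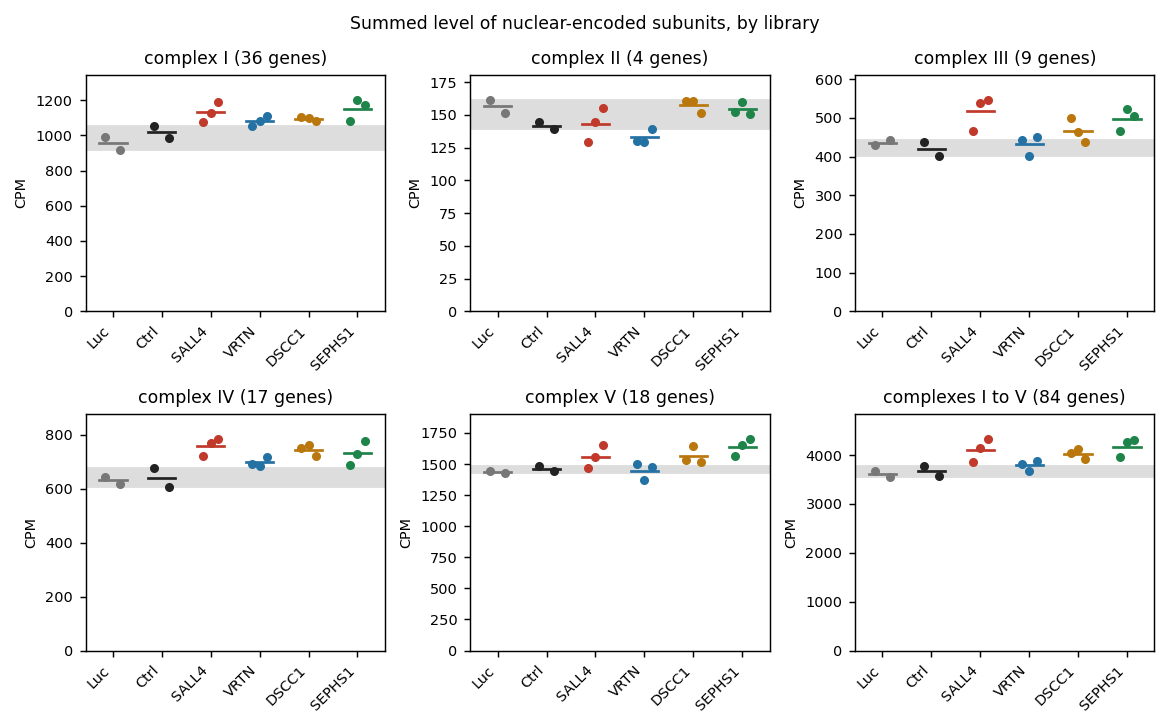
Summed level of the subunit genes of each complex, in CPM, 1 point per library, with group means as lines and the range of the 4 control libraries in grey. Complex I and complex IV lie above the control range in all 12 knockdown libraries, and complex II does so in none.

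Gene by gene, 78 of the 84 were tested and 6 were left out by the filter on low counts: the 4 complex IV isoforms without counts, NDUFV2 and ATP5MGL. COX7A1 passed only through knockdown libraries. NDUFA7 was near the floor in controls (0 to 0.520 CPM, mean 0.130) and also needed knockdown libraries to pass. Counts and medians over the tested genes are therefore a description. Medians and numbers of positive genes are also given for the 60 members with a mean of at least 5 CPM over all libraries. With SALL4 siRNA the median log2 fold change of the 78 was 0.27 (57 positive), and that of the 60 was 0.21 (44 positive). For VRTN siRNA the medians were 0.15 (53 of 78 positive) and 0.12 (41 of 60), for DSCC1 siRNA 0.14 (57) and 0.17 (48), and for SEPHS1 siRNA 0.25 (63) and 0.23 (49). The medians over all genes tested were 0.02, 0.02, 0.00175 and -0.02 in the same order. All 4 comparisons share the same 4 control libraries, so the recurrence of a direction across them is not independent. Positive in all 4 were 35 of the 78 tested members (44.9%), NDUFA7 among them, against 14.6% of all genes tested. This count was not made for the 60 members alone or against genes of like length or level.

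Complex IV had the highest median of the 5 complexes in each knockdown, at 0.42 with SALL4 siRNA, 0.25 with VRTN siRNA, 0.42 with DSCC1 siRNA and 0.38 with SEPHS1 siRNA. Of its 13 tested genes, 13, 10, 12 and 13 were positive in that order, and for its 11 genes of at least 5 CPM the medians were 0.38, 0.25, 0.33 and 0.29. Complex II had the lowest median each time, at -0.06, -0.16, -0.01 and 0.05. None of its 4 genes was called by edgeR in these comparisons (2.98, 1.13, 0.0455 and 1.53% of genes tested were called), and 0, 0, 1 and 0 had an unadjusted p under 0.05. With 4 genes these counts are no result about the complex. Complex I and complex III lay between them, with 0.25 and 0.27 for SALL4 siRNA and 0.28 and 0.24 for SEPHS1 siRNA. Complex V was at 0.18 and 0.20 in those knockdowns. For genes of at least 5 CPM, the medians with SALL4, VRTN, DSCC1 and SEPHS1 siRNA were 0.17, 0.13, 0.15 and 0.24 in complex I. They were 0.23, 0.13, 0.11 and 0.23 in complex III and 0.18, 0.07, 0.07 and 0.20 in complex V.

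Transcript length moved with these differences, and its part in them was not tested beyond the following values. The members are short, with a median annotated transcript of 764 bases against 2369 over the tested genes. The complexes differ in this: transcripts of complex II genes have 1153 (SDHB) to 13566 bases (SDHC). Those of complex IV are all under 1000 bases except NDUFA4, at 2130. In the contrast of complex II with complex IV, complex and length therefore cannot be told apart. The 49 tested members under 1000 bases had a median log2 fold change of 0.38, 0.25, 0.21 and 0.36 with SALL4, VRTN, DSCC1 and SEPHS1 siRNA, and the 29 longer ones had 0.09, 0.04, 0.07 and 0.24. Over all 3546 tested genes under 1000 bases the medians were 0.13, 0.14, 0.09 and 0.15. Over all tested genes of 1000 bases or more they were 0, 0.0012, -0.0065 and -0.043. With offsets for length and GC content in the fit, the median of the 78 members was 0.22, 0.11, 0.11 and 0.16.

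**Figure D3:**
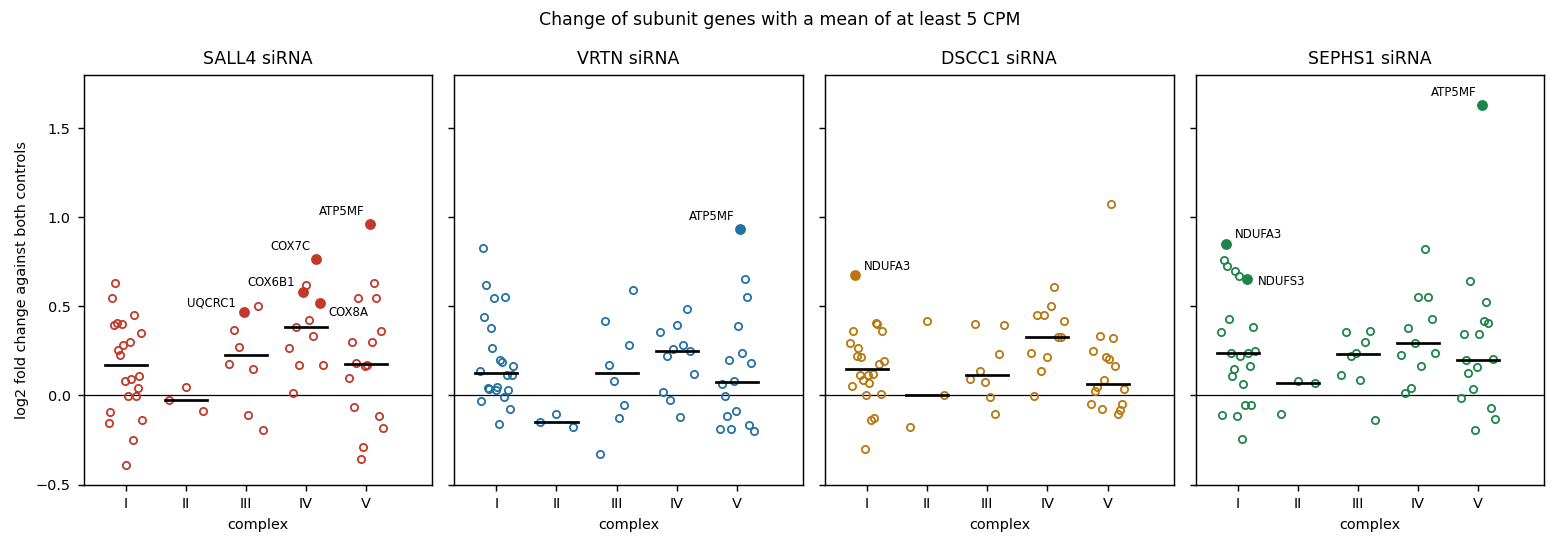
Log2 fold change of the 60 subunit genes with a mean of at least 5 CPM in each knockdown against both controls, by complex; each point is a gene, filled and named where the adjusted p was under 0.05, and black bars are medians. Called genes are all above 0, and the bar of complex IV is the highest of the 5 in each panel.

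Few single genes passed the test, all of them upwards. With SALL4 siRNA 5 members rose and 0 fell, where 1.85% of all genes tested were called higher, 1.13% lower and 2.98% in either direction. With VRTN siRNA 1 rose and 0 fell (0.445% of genes tested called higher, 0.683% lower, 1.13% either). With DSCC1 siRNA 1 rose and 0 fell (0.0455% of genes tested called higher, 0% lower, 0.0455% either). With SEPHS1 siRNA 3 rose and 0 fell (0.602% of genes tested called higher, 0.931% lower, 1.53% either). At an unadjusted p under 0.05, edgeR had 2, 1, 0 and 0 members lower in the 4 comparisons (5.8, 5.13, 2.47 and 7.39% of genes tested), and after adjustment DESeq2 called 1, 0, 0 and 0 and limma-voom 2, 1, 0 and 0 lower. With the length and GC offsets the SALL4 comparison had 5 members higher and 2 lower, and shares of all genes called lower are not given for these other fits. Those offsets ended the calls, given below, of ATP5MF with VRTN siRNA (adjusted p = 0.108), NDUFA3 with DSCC1 siRNA (0.0964), NDUFS3 with SEPHS1 siRNA (0.0649) and CYC1 between SALL4 and VRTN siRNA (0.0551). All libraries of a knockdown were above the 4 controls for 17, 11, 16 and 17 of the 78 genes with SALL4, VRTN, DSCC1 and SEPHS1 siRNA, where 6.82, 5.27, 4.61 and 5.25% of genes tested did so. All were below for 1, 4, 0 and 1 of the 78 (6.83, 6.68, 4.49 and 7.76% of genes tested). In 2 members, ATP5MF and COX7C, all 12 knockdown libraries were above all 4 controls (0.268% of genes tested), and in 0 members all 12 were below (0.142%).

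Promoters of called members are shown because these genes moved in the same direction. RefSeq windows of GRCh38.p14, from 250 bases before to 50 after the annotated start, were matched by symbol for 67 of the 84 genes, and 17 had no entry, ATP5MF and CYC1 among them. The 250 bases before the start are printed 5′ to 3′ on the strand of the gene. They lie at chr5:86617691-86617940 (plus strand) for COX7C, chr19:35648073-35648322 (plus) for COX6B1, chr11:63974370-63974619 (plus) for COX8A, chr3:48609647-48609896 (minus) for UQCRC1, chr19:54102605-54102854 (plus) for NDUFA3 and chr11:47578824-47579073 (plus) for NDUFS3. All 6 RefSeq starts lie inside the gene as GENCODE 29 annotates it, by 13 bases for COX8A, 37 for COX7C, 100 for COX6B1, 127 for NDUFA3, 1330 for UQCRC1 and 13738 for NDUFS3. Capitals mark each match, on either strand, to the letters searched. For NRF1 these were GCGCATGCG, part of its palindromic site. ETS factors such as GABPA were represented by the letters CCGGAAG. For the zinc finger factor YY1 the search used AAGATGGCG. SP1 was represented by the GC box letters GGGCGG. NF-Y was represented by the box it binds, CCAAT. The TATA box was represented by the letters TATAAA.
COX7C: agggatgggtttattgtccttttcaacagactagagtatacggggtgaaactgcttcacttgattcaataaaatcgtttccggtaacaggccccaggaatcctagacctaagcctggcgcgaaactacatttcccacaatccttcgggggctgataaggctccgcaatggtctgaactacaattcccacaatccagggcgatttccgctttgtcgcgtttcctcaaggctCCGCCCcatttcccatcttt
COX6B1: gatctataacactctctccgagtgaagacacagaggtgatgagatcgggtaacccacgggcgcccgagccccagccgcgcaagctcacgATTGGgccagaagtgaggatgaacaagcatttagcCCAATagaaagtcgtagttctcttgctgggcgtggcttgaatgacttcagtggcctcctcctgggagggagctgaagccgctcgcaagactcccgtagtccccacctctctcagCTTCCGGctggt
COX8A: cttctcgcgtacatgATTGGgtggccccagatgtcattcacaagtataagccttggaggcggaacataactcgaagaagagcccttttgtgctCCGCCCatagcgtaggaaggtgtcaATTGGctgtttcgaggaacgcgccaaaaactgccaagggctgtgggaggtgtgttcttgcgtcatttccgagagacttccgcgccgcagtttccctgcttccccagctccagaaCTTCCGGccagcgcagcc
UQCRC1: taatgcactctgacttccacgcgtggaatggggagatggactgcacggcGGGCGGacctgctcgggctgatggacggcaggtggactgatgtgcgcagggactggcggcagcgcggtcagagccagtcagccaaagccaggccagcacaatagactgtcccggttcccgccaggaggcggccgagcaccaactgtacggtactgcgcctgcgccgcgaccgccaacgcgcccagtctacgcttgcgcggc
NDUFA3: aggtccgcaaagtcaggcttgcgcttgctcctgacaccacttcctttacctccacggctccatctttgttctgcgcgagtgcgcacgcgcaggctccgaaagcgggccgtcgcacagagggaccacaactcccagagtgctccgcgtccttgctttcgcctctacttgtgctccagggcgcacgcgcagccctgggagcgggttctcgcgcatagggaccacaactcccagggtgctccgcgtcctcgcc
NDUFS3: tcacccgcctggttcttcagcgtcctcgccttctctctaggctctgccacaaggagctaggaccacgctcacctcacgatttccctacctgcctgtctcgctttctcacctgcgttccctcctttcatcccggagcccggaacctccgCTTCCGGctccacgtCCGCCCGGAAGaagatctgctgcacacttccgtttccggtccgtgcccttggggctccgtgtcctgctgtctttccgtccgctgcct
ETS letters lay close to the start in COX6B1 and COX8A, beginning 12 and 18 bases before it. NDUFS3 held them at 102 and 83 bases before the start, the latter overlapping an SP1 match that begins 87 bases before it. COX7C and UQCRC1 each held a single SP1 match, and the printed bases of NDUFA3 held none of the 6 motifs. Over the full windows of 300 bases, ETS letters were in 29.9% of the 67 member promoters against 14.2% of 15843 protein-coding promoters and 10.7% of all 27305. The shares in members against protein-coding promoters were 14.9% against 2.76% for NRF1, 11.9% against 2.74% for YY1, 59.7% against 58.5% for SP1, 34.3% against 36.4% for the NF-Y letters and 10.4% against 9.63% for the TATA letters. In all promoters they were 2.10, 1.85, 44.6, 35.7 and 12.0%. The NRF1 letters were shortened by 1 base after a longer form, the same letters followed by C, had been searched. With that form the shares were 5.97% of members (4 of 67), 1.75% of protein-coding and 1.36% of all promoters. A match describes letters in this window and no more.

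ATP5MF, subunit f of the membrane part of ATP synthase (ENSG00000241468, chr7:99448475-99466331, minus strand, GRCh38), was at 9.68 and 9.87 CPM in Luciferase and at 12.8 and 11.4 CPM in Control libraries. It reached 23.9, 20.1 and 19.4 CPM with SALL4 siRNA, 20.8, 16.5 and 25.03 with VRTN siRNA, 23.7, 19.6 and 25.4 with DSCC1 siRNA and 20.2, 30.3 and 50.6 with SEPHS1 siRNA. No knockdown library overlapped the controls, and the SEPHS1 libraries were the most spread. The gene rose by 0.96 (SE 0.23, adjusted p = 0.0113) with SALL4 siRNA, by 0.93 (SE 0.23, adjusted p = 0.0290) with VRTN siRNA and by 1.63 (SE 0.23, adjusted p = 4.86e-05) with SEPHS1 siRNA. With DSCC1 siRNA it missed the threshold (log2 fold change 1.07, SE 0.23, adjusted p = 0.0738) and was called in 6 of 21 alternatives. The SEPHS1 call held in all 22 alternatives, with adjusted p of 5.09e-12 to 0.00733. Without SEPHS1 replicate 3, the library with the largest share of mitochondrial counts, the change was 1.22 (adjusted p = 0.00333). Leaving out SALL4 replicate 1 (adjusted p = 0.0820) ended the SALL4 call, whose adjusted p over the alternatives was 4.04e-04 to 0.186. The VRTN call ended without Control replicate 2 (adjusted p = 0.0502), VRTN replicate 1 (0.0972) or VRTN replicate 3 (0.205), with a range of 0.00140 to 0.396. Of the 2275 exon bases in all annotated transcripts of ATP5MF, 8.57% overlap the readthrough gene ATP5MF-PTCD1 and PTCD1 on the same strand. The transcript used here has only 305 bases, and how much of it is shared was not determined, so the count of ATP5MF is uncertain. DSCC1 minus SEPHS1 siRNA, compared directly, gave no call for this gene (log2 fold change -0.56, SE 0.24, adjusted p = 0.459).

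Other complex V genes did not pass the test. ATP5F1B, the catalytic beta subunit, was at 317 ± 18.3 CPM in controls, 389 ± 18.3 with SALL4 siRNA, 331 ± 30.2 with VRTN siRNA, 376 ± 25.1 with DSCC1 siRNA and 403 ± 21.4 with SEPHS1 siRNA. It was not called with SALL4 siRNA (log2 fold change 0.30, SE 0.10, adjusted p = 0.110) or SEPHS1 siRNA (log2 fold change 0.35, SE 0.10, adjusted p = 0.0725). ATP5F1A, the alpha subunit, had log2 fold changes between -0.19 and 0.10 in the 4 knockdowns. The 3 genes of the c ring had unlike signs in the SALL4 comparison, and none was called: -0.36 for ATP5MC1 (SE 0.14, adjusted p = 0.196), -0.29 for ATP5MC2 (SE 0.11, adjusted p = 0.171) and 0.17 for ATP5MC3 (SE 0.11, adjusted p = 0.571).

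NDUFA3, an accessory subunit of the membrane arm of complex I (ENSG00000170906, chr19:54102728-54109257, plus strand), was at 46.5 and 45.1 CPM in Luciferase and 48.6 and 53.0 in Control libraries. With DSCC1 siRNA it was at 80.1, 77.4 and 73.3 CPM, with SEPHS1 siRNA at 77.3, 80.4 and 103, with SALL4 siRNA at 71.7, 67.1 and 51.7 and with VRTN siRNA at 63.4, 66.0 and 66.5 CPM. Both 72 h groups and the VRTN group lay above all controls, and SALL4 replicate 3 lay within their range. NDUFA3 rose by 0.85 (SE 0.13, adjusted p = 3.09e-04) with SEPHS1 siRNA and by 0.67 (SE 0.13, adjusted p = 0.0470) with DSCC1 siRNA. The SEPHS1 call held in all 22 alternatives (adjusted p of 1.82e-07 to 0.0179). The DSCC1 call held in 11 of 21 and ended without Luciferase replicate 1 (adjusted p = 0.0696), Control replicate 1 (0.0925), DSCC1 replicate 1 (0.323), DSCC1 replicate 2 (0.230) or DSCC1 replicate 3 (0.239), with a range over the alternatives of 0.00131 to 1.00. NDUFA3 was not called with SALL4 siRNA (log2 fold change 0.40, SE 0.13, adjusted p = 0.119) or VRTN siRNA (log2 fold change 0.44, SE 0.13, adjusted p = 0.133).

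NDUFS3, a core subunit of the peripheral arm of complex I (ENSG00000213619, chr11:47565336-47584562, plus strand), was at 21.1, 25.3, 31.5 and 29.3 CPM in the controls and at 30.4, 45.2 and 49.6 CPM with SEPHS1 siRNA, so that SEPHS1 replicate 1 overlapped them. It rose by 0.65 (SE 0.17, adjusted p = 0.0438) with SEPHS1 siRNA. That call held in 8 of 22 alternatives and ended without Luciferase replicate 1 (adjusted p = 0.144), Control replicate 1 (0.0561), Control replicate 2 (0.0830), SEPHS1 replicate 2 (0.143) or SEPHS1 replicate 3 (0.260), with a range of 0.00848 to 0.500. Of the exon bases of NDUFS3, 19.6% overlap PTPMT1 on the same strand, so its count is uncertain. NDUFA2, an accessory subunit of the peripheral arm, was at 11.8, 10.4, 11.2 and 15.2 CPM in controls and 19.2, 24.1 and 21.3 CPM with VRTN siRNA, all above the controls, and just missed the threshold (log2 fold change 0.83, SE 0.22, adjusted p = 0.0500071). NDUFB4 also missed it with SALL4 siRNA (log2 fold change 0.40, SE 0.12, adjusted p = 0.0505), at 167, 189 and 211 CPM against 149, 126, 160.3 and 138 CPM in controls.

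Of the complex IV genes, 3 rose with SALL4 siRNA. COX7C, a small accessory subunit (ENSG00000127184, chr5:86617904-86620962, plus strand), was at 25.1, 20.9, 24.7 and 25.3 CPM in controls and 31.4, 47.2 and 44.0 in SALL4 libraries, a rise of 0.77 (SE 0.17, adjusted p = 0.00588). It was also above all controls with VRTN siRNA (35.8, 30.6 and 34.4 CPM), DSCC1 siRNA (32.1, 32.0 and 26.2) and SEPHS1 siRNA (34.5, 41.3 and 29.4), where it was not called. Libraries with SALL4 siRNA overlapped those of the other knockdowns. COX6B1, at the interface of the enzyme's monomers on the intermembrane side (ENSG00000126267, chr19:35648223-35658861, plus strand), was at 47.3, 48.5, 65.4 and 46.4 CPM in controls and 76.8, 69.7 and 85.8 CPM with SALL4 siRNA. The SALL4 libraries were above Control replicate 1, the highest control, and the gene rose by 0.58 (SE 0.14, adjusted p = 0.0109). COX8A, another small subunit (ENSG00000176340, chr11:63974607-63976543, plus strand), was at 56.5, 59.5, 68.4 and 57.9 CPM in controls and at 86.1, 88.2 and 85.7 CPM with SALL4 siRNA. These groups did not overlap, and COX8A rose by 0.52 (SE 0.12, adjusted p = 0.0116). It was not called with SEPHS1 siRNA (log2 fold change 0.43, SE 0.12, adjusted p = 0.0764). The call of COX7C ended without SALL4 replicate 2 (adjusted p = 0.0749), that of COX6B1 without Control replicate 2 (adjusted p = 0.119) and that of COX8A without Control replicate 2 (adjusted p = 0.101) or SALL4 replicate 2 (0.0573). Over the alternatives the adjusted p ran from 7.39e-04 to 0.0861 for COX7C, 0.00143 to 0.232 for COX6B1 and 2.57e-04 to 0.186 for COX8A. The gene AP000721.1 overlaps 34.5% of the exon bases of COX8A on the same strand.

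Among complex III genes, UQCRC1, a core subunit (ENSG00000010256, chr3:48599002-48610976, minus strand), was at 70.5 and 77.7 CPM in Luciferase, 63.7 and 68.9 in Control and 86.0, 113 and 91.7 in SALL4 libraries, which did not overlap the controls. It rose by 0.47 (SE 0.13, adjusted p = 0.0445). Its call held in 11 of 22 alternatives and ended without Luciferase replicate 1 (adjusted p = 0.116), Luciferase replicate 2 (0.0573), Control replicate 1 (0.115), Control replicate 2 (0.0687) or SALL4 replicate 2 (0.357), with a range of 0.00405 to 0.380. UQCR10, a small subunit, was at 55.0 ± 3.95 CPM in controls and between 56.1 and 89.0 CPM in the knockdown libraries, with no call for DSCC1 siRNA (log2 fold change 0.40, SE 0.15, adjusted p = 0.733) or SEPHS1 siRNA (log2 fold change 0.36, SE 0.15, adjusted p = 0.296). In complex II, SDHC, a membrane anchor, had the smallest p of the complex with SALL4 siRNA (log2 fold change -0.09, SE 0.11, adjusted p = 0.862), VRTN siRNA (log2 fold change -0.18, SE 0.11, adjusted p = 0.658) and SEPHS1 siRNA (log2 fold change 0.07, SE 0.11, adjusted p = 0.892). SDHB was at 41.5, 44.2 and 35.03 CPM with DSCC1 siRNA, above the controls at 30.3, 27.7, 32.0 and 30.5 CPM, and was not called (log2 fold change 0.42, SE 0.15, adjusted p = 0.728).

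**Figure D4:**
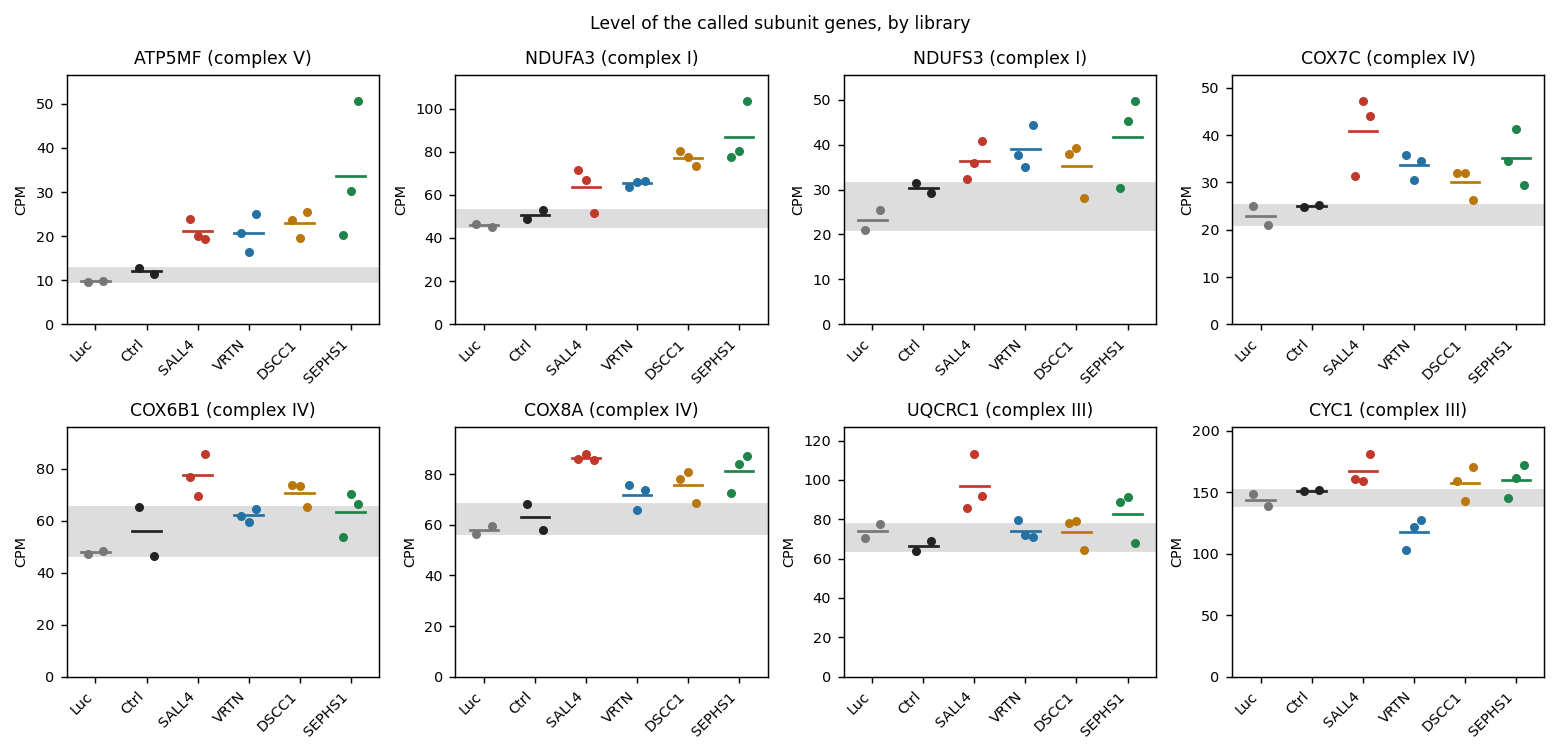
Level of the 8 subunit genes called in a comparison, in CPM, 1 point per library, with group means as lines and the range of the 4 control libraries (Luc and Ctrl) in grey. ATP5MF and COX7C lie above the grey range in all 12 knockdown libraries, and CYC1 lies below it in the 3 VRTN libraries.

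Knockdowns of the same harvest time were compared directly, which does not need the controls, although the SALL4 and VRTN siRNAs were of different kinds. At 48 h, 1 member was higher with SALL4 than with VRTN siRNA and 0 lower, where 1.73% of genes tested were called higher, 0.703% lower and 2.44% in either direction. At an unadjusted p under 0.05 edgeR had 1 member lower (5.26% of genes tested), and DESeq2 and limma-voom called 1 each (shares of all genes not given). The member called higher was CYC1, the haem-bearing cytochrome c1 of complex III (ENSG00000179091), at 161, 159 and 181 CPM with SALL4 siRNA and 103, 122 and 127 CPM with VRTN siRNA. The groups did not overlap, and the difference was 0.51 (SE 0.12, adjusted p = 0.0134). Without VRTN replicate 1 (adjusted p = 0.123) the call ended, and over its 17 alternatives the adjusted p ran from 4.60e-04 to 0.123. Controls lay between, at 149, 139, 151 and 152 CPM, and VRTN siRNA against controls gave no call (log2 fold change -0.33, SE 0.11, adjusted p = 0.210). ATP5MC2 was at 119, 111 and 119 CPM with SALL4 siRNA and 151, 148 and 154 CPM with VRTN siRNA, without a call (log2 fold change -0.37, SE 0.11, adjusted p = 0.0785). The median over the 78 members was 0.06. At 72 h, edgeR called no member between DSCC1 and SEPHS1 siRNA, where 0.238% of genes tested were called higher, 0.0303% lower and 0.268% in either direction. At an unadjusted p under 0.05 there were 2 members higher and 3 lower (5.87 and 3.71% of genes tested), and DESeq2 and limma-voom called none. Between the control siRNAs, edgeR, DESeq2 and limma-voom called no member (0% of genes tested in edgeR). There, 0 members had an unadjusted p under 0.05 (1.07% of genes tested), and the median was 0.01.

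Partner genes outside the 84 were read in the same fits. With SALL4, VRTN, DSCC1 and SEPHS1 siRNA, 2.98, 1.13, 0.0455 and 1.53% of genes tested were called in either direction. Called higher were 1.85, 0.445, 0.0455 and 0.602%. Shares of all genes at an unadjusted p under 0.05 in either direction are not given for these comparisons. Of the 13 protein genes of mitochondrial DNA, 11 rose with SEPHS1 siRNA, with a median log2 fold change of 0.73 over the 13. MT-ND3, a complex I subunit, rose by 1.63 (SE 0.15, adjusted p = 2.93e-08), MT-ATP8 of complex V by 1.30 (SE 0.16, adjusted p = 5.38e-06) and MT-ND2 by 1.06 (SE 0.14, adjusted p = 2.07e-05). With DSCC1 siRNA, 1 of the 13, MT-ND3, rose by 0.75 (SE 0.15, adjusted p = 0.0482), and 10 of the 13 were higher at an unadjusted p under 0.05. With SALL4 or VRTN siRNA edgeR called 0, and 1 and 3 had an unadjusted p under 0.05. With all mitochondrial genome counts removed before normalisation, the median of the 78 nuclear members was 0.28, 0.15, 0.14 and 0.26 for SALL4, VRTN, DSCC1 and SEPHS1 siRNA. Of 57 tested assembly factors, 1 was called in the 4 comparisons. At the shares above, so low a count is no result about them, and the same holds for the 2 lists that follow. This was COX17, a copper chaperone for complex IV, at 7.93, 12.0, 8.14 and 8.84 CPM in controls and 18.7, 11.8 and 24.6 CPM with SEPHS1 siRNA. It rose by 0.99 (SE 0.25, adjusted p = 0.0382), although SEPHS1 replicate 2 lay within the control range. Medians of the assembly factors were -0.02, 0.08, 0.04 and 0.07 in the order above. Of 20 regulators of mitochondrial biogenesis, 1 was called: MYC, a transcription factor with many targets in growth and metabolism, fell by 0.69 with SALL4 siRNA (SE 0.14, adjusted p = 0.00336). For NRF1 no call was made with SALL4 siRNA (log2 fold change -0.08, SE 0.32, adjusted p = 0.989) or SEPHS1 siRNA (log2 fold change -0.10, SE 0.32, adjusted p = 0.971). GABPA (-0.50 and -0.38, SE 0.63 each) and YY1 (-0.06 and -0.16, SE 0.13 each) were not called in the same comparisons. Of 17 tested electron carriers and neighbours of the chain, edgeR called 0 in the 4 comparisons, and 1, 0, 2 and 0 had an unadjusted p under 0.05.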

How the data were processed

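Polyadenylated RNA of 16 samples was read as 80 bp single ends after a Lexogen SENSE library preparation, per the labels. The deposited table holds raw counts per gene, which the authors made with STAR 2.4.0.1, HTSeq 0.9.1 and GRCh38, per the submitters' processing notes; the annotation release, the strand setting and the treatment of shared reads are not given in the sources used here. Symbols came from a gene name table (56558 identifiers) and GENCODE 29 (497), which also gave positions, overlaps and transcripts: the shortest principal protein-coding one of each gene, an uncertain choice where it is long, as for SDHC and UQCRB. Counts per kilobase use that length.

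All 16 libraries entered 1 fit with 6 groups in edgeR 4.0.16 (R 4.3.3): filterByExpr, TMM and the quasi-likelihood test, each knockdown against the mean of Luciferase and Control. Each SE was derived from the estimate and its F statistic. Libraries are called biological replicates in the labels. All replicate pairs differed beyond sampling noise. The pipeline was run on simulated counts with changes set only in the SALL4 libraries, which does not test the results on the members. Floors cover counting error only, since reads carry no molecular identifiers.

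Members, lists and motif letters were chosen with earlier results of these data known. Named are the 4 targets, all called members, the smallest p per complex and comparison, isoform pairs, the highest and lowest level per complex, and called genes of the other lists; ATP5F1A, ATP5F1B, UQCR10 in a further comparison, NRF1, GABPA and YY1 were named after their values were seen. Alternatives used other scalings, filters, controls, tools (DESeq2 1.42.0, limma 3.58.1), length and GC offsets, a replicate block and leaving out each library; removing mitochondrial counts was added after seeing the data. Of the pluripotency, neuroectoderm, mesoderm, endoderm, fibroblast and muscle lists, KDR rose and COL1A1, NES and PODXL fell with SALL4 siRNA (2.98% of genes tested called). DPPA4 rose and COL1A1 fell with VRTN siRNA (1.13%), and none was called with DSCC1 (0.0455%) or SEPHS1 siRNA (1.53%). Values of 1 complex I member are not reported here, though counts, sums and medians include it.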

Additional observations from a re-analysis of the deposited data

How the results depend on the processing

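Against both controls, the members' median kept its sign in all 22 alternatives of each knockdown, from 0.19 to 0.33 for SALL4, 0.08 to 0.20 for VRTN, 0.10 to 0.23 for DSCC1 and 0.15 to 0.31 for SEPHS1 siRNA. Counts of called members depended more on the processing, and the cause was not tested. The share of all genes called also moved, for SALL4 siRNA from 2.98% in the main fit to 6.52% with DESeq2 and 6.53% with limma-voom. It is not given for the other alternatives here, so their counts are no result about the members. For SALL4 siRNA (5) they were 10 with DESeq2 (9 higher, 1 lower) and with limma-voom (8 higher, 2 lower; 6.52 and 6.53% of genes tested), 2 with only the groups compared, 0 against Control alone or against replicate 1 of both controls, and 2 to 7 leaving out 1 library, with 2 without Control replicate 2 or SALL4 replicate 2. For VRTN siRNA (1) they were 3 with DESeq2, 2 with its size factors in edgeR, no filter, a stricter filter, limma-voom or mitochondrial counts removed (1 of them lower with limma-voom), and 0 with length and GC offsets, against Luciferase alone, Control alone or replicate 1 of the controls, and 0 to 1 leaving out 1 library, with 0 without VRTN replicate 1 or 3. For DSCC1 siRNA (1) they were 2 with no filter, only the groups compared or replicate 1 of the controls, 0 with a stricter filter, length and GC offsets, DESeq2 (adjusted p given for 13 members), Luciferase alone, Control alone or replicate 2 of the controls, and 0 to 2 leaving out 1 library, with 0 without Luciferase replicate 1 or any DSCC1 replicate and 2 without Luciferase replicate 2 or Control replicate 2. For SEPHS1 siRNA (3) they were 8 with DESeq2, 5 with no filter or a stricter one, and 2 to 4 leaving out 1 library. ATP5MF and NDUFA3 were called with SEPHS1 siRNA in all 22. For SALL4 against VRTN siRNA (1) they were 3 with DESeq2, 2 with limma-voom, a stricter filter or length and GC offsets with a replicate block (1 of them lower in each), 0 with only the groups compared, and 0 to 1 leaving out 1 library, with 0 without VRTN replicate 1.

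Some same-numbered samples deviated together and others did not: of 36 pairs, 9 correlated above 0.1, the values ran from -0.32 to 0.36, the median was 0.02, and 8 of 16 libraries correlated best with one of their own number. Deviations from the mean of a control group of 2 libraries mirror each other. The 36 values are therefore not independent, and they cannot settle whether the numbers pair the samples. With the replicate block 6, 2, 1 and 2 members were called for SALL4, VRTN, DSCC1 and SEPHS1 siRNA and 1, 0 and 0 in the other comparisons. SDHC turned to 0.00801 with SALL4 siRNA against Control alone and to -0.0251 with SEPHS1 siRNA against Luciferase alone, and the median of Control against Luciferase ran from -0.0519 (without Control replicate 1) to 0.0421 leaving out 1 library. Where 1 library of a control group was left out, the lone sample was assumed to vary like the other groups. Of the 78 tested members 60 had a mean of at least 5 CPM, and depth limits the rest.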
